A study of Mus musculus with 2 samples.

Results

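DNA methylation was examined at 54 mouse genes grouped as homeobox and T-box developmental regulators. They were 8 Pax, 8 Lhx, 8 Tbx, 5 Nkx, 5 Dlx and 6 Irx genes. The others were the 3 genes Six2, Six3 and Six6, 4 genes of the Otx, Gsc and Pitx group, and 7 of the Emx, En, Msx and Barx group. The genes were listed by name, with earlier results of these data known, and placed by their RefSeq positions on mm10. A gene region ran from 5 kb outside the gene start to 5 kb outside its end, and a CpG was compared where both libraries had at least 10 reads. Of the 54 genes, 53 had at least 10 compared CpGs and are the members described below, of 22490 such genes in the genome. Tbx20, which encodes a cardiac T-box factor, had 7 compared CpGs, which averaged 13.98% in A129-2 and 17.2% in AOS-14, and is left out of the counts of genes. Counts of single CpGs are over all 54 genes.

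The data come from 2 mouse haploid embryonic stem cell lines, which carry a single chromosome set. The A129-2 cells are labelled 129Sv and the AOS-14 cells C57BL/6. Both lines are labelled as derived from AG-haploid embryos with cell sorting, and each gave 1 library. No treatment is named for either line. Line, strain and library cannot be told apart in this design, and no value has a replicate. Every test below compares the reads of 2 libraries, and every interval covers counting error only. A read that spans several CpGs is counted at each of them. Reads summed over CpGs are therefore counts of calls and not of independent reads. Their p-values come out too small and their intervals too narrow.

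Homeobox and T-box factors specify the body axis, limbs, eyes, heart and regions of the brain, and most are silent or barely transcribed in embryonic stem cells. Their genes often lie in long CpG-rich stretches that stay free of DNA methylation even where the gene is off. In stem cells, such stretches are a known place of Polycomb group proteins, which hold developmental genes in a repressed state without DNA methylation. The data hold no transcripts and no chromatin marks, so the labelled cell type could not be checked on marker genes.

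The sequences around 4 transcription starts show what was measured. They come from RefSeq's promoter table (GRCm38.p6, the same assembly as mm10), which holds 250 bases before to 50 bases after a start. Each is printed 5′ to 3′ on the strand of its gene, with the compared CpGs as capital CG and all else in lower case. Barx1 and Six2 show dense, nearly unmethylated starts, Lhx9 the start with the largest difference between the lines, and Pax6 an internal start of intermediate level.
Barx1, chr13:48662786-48663085, plus strand: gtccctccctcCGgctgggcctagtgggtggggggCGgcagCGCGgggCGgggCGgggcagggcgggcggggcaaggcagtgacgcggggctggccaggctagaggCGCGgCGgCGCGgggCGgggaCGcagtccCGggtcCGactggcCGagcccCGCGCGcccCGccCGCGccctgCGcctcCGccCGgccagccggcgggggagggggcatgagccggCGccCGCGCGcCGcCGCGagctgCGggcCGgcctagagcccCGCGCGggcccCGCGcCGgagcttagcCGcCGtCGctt
Six2, chr17:85688205-85688504, minus strand: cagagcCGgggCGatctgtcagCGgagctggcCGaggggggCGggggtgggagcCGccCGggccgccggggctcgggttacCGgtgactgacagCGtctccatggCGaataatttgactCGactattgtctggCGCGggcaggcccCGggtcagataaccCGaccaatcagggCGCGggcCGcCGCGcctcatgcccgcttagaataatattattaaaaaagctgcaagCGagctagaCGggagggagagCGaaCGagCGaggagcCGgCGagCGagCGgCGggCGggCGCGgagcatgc
Lhx9, chr1:138842395-138842694, minus strand: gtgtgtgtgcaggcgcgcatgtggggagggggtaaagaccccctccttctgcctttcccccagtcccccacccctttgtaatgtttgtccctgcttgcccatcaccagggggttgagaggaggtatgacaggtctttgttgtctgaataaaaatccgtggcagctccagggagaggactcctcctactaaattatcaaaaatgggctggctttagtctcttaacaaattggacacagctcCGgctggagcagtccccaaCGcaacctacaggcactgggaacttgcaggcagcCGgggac
Pax6, chr2:105682213-105682512, plus strand: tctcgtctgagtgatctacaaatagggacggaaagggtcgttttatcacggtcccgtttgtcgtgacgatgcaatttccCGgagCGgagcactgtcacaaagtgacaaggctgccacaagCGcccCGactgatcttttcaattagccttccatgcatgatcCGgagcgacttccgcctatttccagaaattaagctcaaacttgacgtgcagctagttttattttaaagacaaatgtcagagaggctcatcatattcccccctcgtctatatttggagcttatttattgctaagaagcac

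The window of Barx1, a regulator of stomach and tooth development, holds 50 CpGs, of which 43 were compared. Their mean level was 2.26% from 4112 reads in A129-2, against 3.36% from 2974 reads in AOS-14. At Six2, which maintains nephron progenitors in the kidney, 33 of 37 CpGs were compared and stood at 2.48% and 2.33%. The Lhx9 start, of a LIM-homeobox gene needed for the gonads, is poor in CpGs: 3 of its 6 were compared, and they averaged 12.3% over 588 reads in A129-2 but 48.7% over 424 reads in AOS-14. It lies 6.39 kb inside the gene. The Pax6 start lies 13.6 kb inside this eye and brain gene, and its 5 compared CpGs of 16 stood at 9.85% and 13.2%.

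Promoter windows were found for 39 of the 54 genes, 50 windows in all. The median window held 18.5 CpGs, against 7 over the 32851 windows of the table, and 84.0% held at least 10 CpGs against 43.5%. The motif CCGG, searched as these letters, which read the same on both strands and contain a CpG, was present in 82.0% of the member windows and 52.8% of all windows. In 22 windows with at least 5 compared CpGs, levels ran from 0.962% at Emx1 to 9.85% at the internal Pax6 start in A129-2, and from 1.06% at Dlx1 to 13.2% at the same Pax6 start in AOS-14. No CpG was compared in 21 of the 50 windows.

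The member regions were lowly methylated in both lines. The median region level was 5.62% in A129-2, with a range of 2.29% to 13.1%, and 6.82% in AOS-14, with a range of 2.85% to 16.7%. Over all 22490 genes the medians were 6.31% and 9.08%. Levels under 10% were found at 51 of 53 members in A129-2 (96.2%, against 70.1% of all genes) and at 43 of 53 in AOS-14 (81.1% against 54.1%). A member region held 10 to 286 compared CpGs, with a median of 118 against 41 for all genes, and the reads summed over a region ranged from 662 to 38185 in A129-2 and from 580 to 36754 in AOS-14. The widest exact 95% binomial interval of a read-weighted region level, at Irx6, was 4.18 points across in A129-2.

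Most of the level that remained came from CpGs inside CCGG. Over the 6820 compared CpGs of the 54 genes, the 1768 inside CCGG had mean levels of 14.5% and 18.7%, and the 5052 others 2.28% and 3.10%. The level inside CCGG was the higher in 52 of 52 members with at least 5 CpGs of each kind, in both lines. Without CCGG, the members' medians were 2.25% in A129-2 and 2.81% in AOS-14, and the median of all genes was 1.76% and 2.86%, so the members were no longer below all genes in A129-2. CCGG is the site at which RRBS, the method named in the series title, cuts DNA, whereas the protocol in the labels describes capture of about 100 Mb of sequence. Its part in each result was not tested beyond giving the values without it. For scale, 20 mitochondrial CpGs, of which 7 lie in CCGG, had mean levels of 3.31% and 3.77%.

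**Figure D1:**
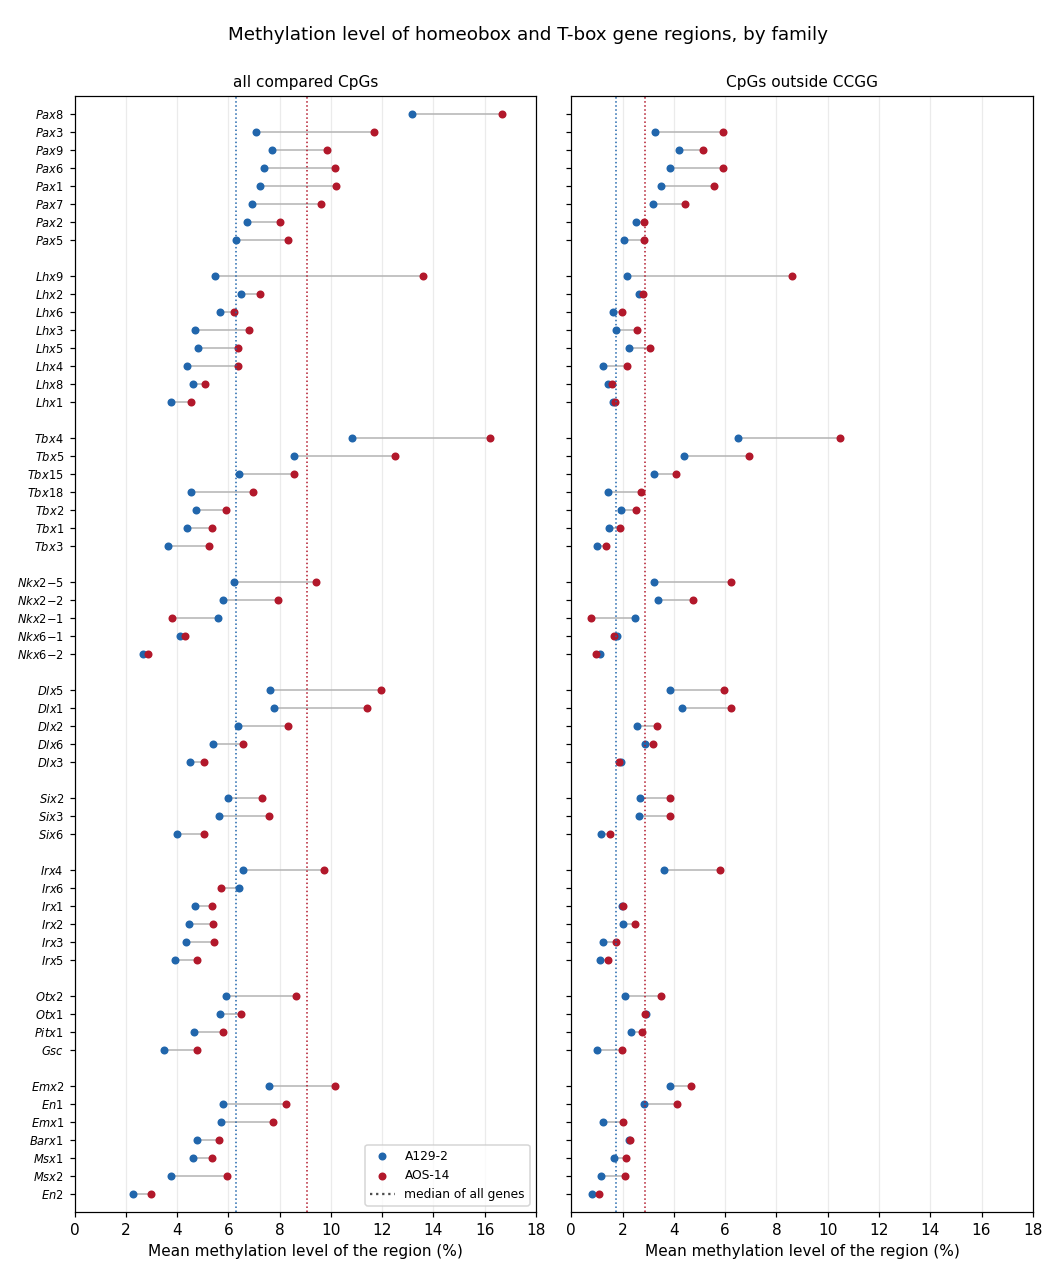
Mean methylation level (percent) of each member region in A129-2 (blue) and AOS-14 (red), sorted within families, from all compared CpGs (left) and from CpGs outside CCGG (right); dotted lines are the medians of all genes. Most blue points lie left of the red ones, Lhx9 has the longest bar, and Nkx2-1 is the reverse.

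The Pax genes had the highest levels of the families. Their family medians were 7.15% in A129-2 and 9.99% in AOS-14, and 3.25% and 5.12% without CCGG. Pax8, a thyroid and kidney regulator, was the highest member in both lines, at 13.1% and 16.7%, from 17 CpGs of which 9 lay in CCGG. Pax3, which acts in the neural crest and muscle precursors, had 7.06% and 11.7%. Its relative Pax7, the marker of muscle stem cells, had 6.93% and 9.62%. Pax6 stood at 7.37% and 10.1%, and Pax2, of kidney and optic stalk, at 6.72% and 8.02%. The B-cell regulator Pax5 was the lowest of the family by the mean of the lines, at 6.31% and 8.33%, although Pax2 was lower in AOS-14. Pax genes are long, and across the members the level went with gene length, with a Spearman rho of 0.472 in A129-2 and 0.531 in AOS-14 over 53 members, and 0.316 and 0.411 over 51 without CCGG; the genes share both libraries, and the values are a description.

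The LIM-homeobox family was low apart from Lhx9, with medians of 4.76% and 6.39%. Lhx1, a regulator of the head organizer and kidney, was its lowest member at 3.75% and 4.54%. Lhx2, of forebrain and eye, had 6.50% and 7.23%, and Lhx8, of forebrain and germ cells, 4.63% and 5.09%. Lhx9 had 5.48% in A129-2, within the range of its family, and 13.6% in AOS-14, the third highest level of any member there.

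The T-box family spanned a wide range. Tbx3, a limb and heart gene that is also active in naive stem cells, was its lowest member at 3.64% and 5.23%. The hindlimb gene Tbx4 was its highest at 10.8% and 16.2%. Without CCGG Tbx4 was the highest in both lines of the 51 members with at least 10 such CpGs, at 6.48% and 10.5%. Pax8, with 8 CpGs outside CCGG, was not among the 51. Those 8 CpGs had 3.95% and 11.4%. Tbx5, the forelimb and heart gene, had 8.54% and 12.5%. Tbx1, of the pharyngeal arches, had 4.40% and 5.37%. Tbx15, of limb and skin, had 6.40% and 8.57%.

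Among the Nkx genes, Nkx6-2, of spinal cord and glia, was the lowest at 2.68% and 2.85%. Nkx6-1, which acts in beta cells and motor neuron precursors, had 4.13% and 4.32%. The heart gene Nkx2-5 was the highest of this family at 6.21% and 9.43%. Nkx2-2, of ventral neural tube and pancreas, had 5.79% and 7.94%. Nkx2-1, the thyroid, lung and forebrain regulator, had 5.61% in A129-2 and 3.82% in AOS-14, the reverse order.

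Dlx genes pattern the jaws and forebrain interneurons, and their medians were 6.36% and 8.32%. Dlx5 had 7.60% and 11.9% from 17 CpGs, Dlx1 7.79% and 11.4%, and Dlx3, a gene of hair and bone, was the lowest at 4.49% and 5.05%. The regions of Dlx1 and Dlx2 share 8 CpGs. The genes Six2, Six3 and Six6 act in eye, kidney and forebrain. Six6, of the eye and pituitary, was lowest at 3.98% and 5.07% and Six2 highest by the mean of the lines at 5.996% and 7.31%. In the Irx family of cardiac and neural patterning genes, levels ran from 3.91% and 4.76% at Irx5 to 6.57% and 9.75% at the ventricular gene Irx4, and Irx3 had 4.34% and 5.45%.

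Gsc, the organizer gene, was among the lowest members at 3.50% and 4.77%. Otx2, a head gene that is active in stem cells and rises on leaving the naive state, was the highest of its group at 5.92% and 8.63%, and the hindlimb gene Pitx1 had 4.64% and 5.81%. En2, of the midbrain and cerebellum, was the lowest member of all in A129-2, at 2.29%, and second only to Nkx6-2 in AOS-14, at 2.97%. Emx2, a cortex and urogenital gene, was the highest of its group at 7.59% and 10.1%, its relative Emx1 had 5.72% and 7.72%, and En1 had 5.80% and 8.26%.

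The lines were compared region by region to ask whether these genes share the lower methylation of A129-2. They did, by small amounts. The mean level was lower in A129-2 at 51 of 53 members, against 96.3% of all genes, with a median difference of -1.59 percentage points. By Fisher's exact test on the reads summed over a region, with Benjamini-Hochberg adjustment over all 22490 genes, 46 of 53 members were lower at an adjusted p under 0.05, against 83.2% of all genes. The direction of such a call is that of the summed reads. Nkx2-1 was the 1 member called higher, against 0.534% of all genes. Under the stricter rule, which also needs a difference of at least 10 points, 0 of 53 members were called, against 11.1% of all genes called lower and 0.0222% called higher. Only 10 members had 10% or more in AOS-14, the least that a fall of 10 points needs, and of all 10320 genes at that level 24.2% were called.

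Reads summed over a region give more weight to deeper CpGs, and on simulated reads with no difference between the libraries that test called 21.1% of 21980 regions. A Cochran-Mantel-Haenszel test, which compares the libraries within each CpG, called 0.118% of them. Reads were simulated at each CpG independently, so these shares do not carry over to real reads that span several CpGs. On the real reads the Cochran-Mantel-Haenszel test called 47 of 53 members lower and 1 higher, against 85.8% and 0.387% of all genes. The 46 and Nkx2-1 were among them. Dlx3, Irx1, Irx6, Lhx6 and Nkx6-2 were called by neither test. En2 was called only within CpGs, with an adjusted p of 0.00432 against 0.154 on summed reads. Without CCGG, 43 of 51 members were lower on summed reads and Nkx2-1 was higher, against 69.2% and 0.976% of all genes, and 0 met the rule of 10 points, against 5.18% and 0.0268%. Nkx6-1 and Otx1 were lower on these reads, at 1.69% against 2.66% and 3.26% against 4.54%, while their mean levels over CpGs were 0.118 and 0.00972 points higher in A129-2. The Cochran-Mantel-Haenszel test called 42 of 51 members lower and 1 higher, Nkx2-1, against 68.9% and 0.917% of all genes.

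The largest fall was at Lhx9, by 8.09 points, with 46 of its 64 CpGs lower in A129-2. Its read-weighted level was 5.74% in A129-2 (95% interval 5.24 to 6.27), against 15.8% in AOS-14 (14.98 to 16.6), with an adjusted p of 6.52e-96 by Fisher's exact test and 1.28e-91 within CpGs. Tbx4 followed with -5.37 points, then Pax3 with -4.62, Dlx5 with -4.34 and Tbx5 with -3.98. Tbx4, Pax3 and Tbx5 had adjusted p-values of 1.44e-14, 1.51e-37 and 8.10e-33 by Fisher's exact test. Dlx5, with fewer reads, had 0.0204. All 5 were also called within CpGs.

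At Lhx9 the difference was not spread evenly over the compared CpGs. The 64 compared CpGs reach to 17.4 kb inside the gene start, and 8 of the 22 member CpGs called lower one by one (adjusted p under 0.05 by Fisher's exact test and at least 25 points) were in this gene, between chr1 positions 138840113 and 138842453. At 138840113, 138840118 and 138840124, outside CCGG, the levels were 1.54%, 1.97% and 7.004% in A129-2 and 30.1%, 30.4% and 42.3% in AOS-14, each from 254 to 317 reads. Around the printed start, the CpG at 138842400 had 12.4% of 97 reads in A129-2 and 62.7% of 83 reads in AOS-14, the one at 138842434 had 6.48% and 40.1%, and the one at 138842453 had 18.2% and 43.4%. These last 3 are the capitals in the Lhx9 sequence. Toward both ends of the gene the points of the lines overlapped.

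Nkx2-1 and Irx6 were the 2 members with a higher mean level in A129-2. Irx6 had 6.41% and 5.72% over 10 CpGs, with an adjusted p of 0.282 by Fisher's exact test and 0.658 within CpGs, and Nkx2-1 was called. Weighted by reads Nkx2-1 stood at 4.38% in A129-2 (3.97 to 4.81) against 3.23% in AOS-14 (2.90 to 3.60), with adjusted p-values of 5.61e-05 by Fisher's exact test and 4.83e-04 within CpGs, although 26 of its 96 CpGs were lower in A129-2. All 96 compared CpGs lie inside the gene. The excess was greatest within 1 kb of its start, at 7.81% against 3.67% over 34 CpGs, and at 4.74% against 0.538% over the 26 outside CCGG. The CpG at chr12 position 56536789 had 6 methylated of 14 reads in A129-2 and 0 of 21 in AOS-14, which allows up to 16.1% there by the exact interval. With flanks of 10 kb in place of 5 kb no member was called higher on summed reads.

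Of the 6820 CpGs of the 54 genes, 22 (0.323%) were called lower in A129-2 and 2 higher, against 4.08% and 0.0297% of all compared CpGs. Among CpGs at 25% or more in AOS-14, which a fall of this size needs, 4.77% of those in members were called, against 16.1% of all. The other 14 CpGs called lower lay in Pax3, Lhx4 and Pax7, with 2 each, and in Nkx2-2, Pax5, Tbx5, Emx1, Tbx18, Tbx4, Barx1 and Irx4, with 1 each. At Tbx5 the CpG at chr5 position 119839907 had 0 of 104 reads methylated in A129-2 and 27.5% of 153 reads in AOS-14. At Pax7 the CpG at chr4 position 139800826 had 16.5% and 46.7%. The second CpG called higher was in Pax2, at chr19 position 44756474, with 4 of 10 reads against 3 of 71. Levels of 50% or more were read at 6 member CpGs in A129-2 and 21 in AOS-14.

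**Figure D2:**
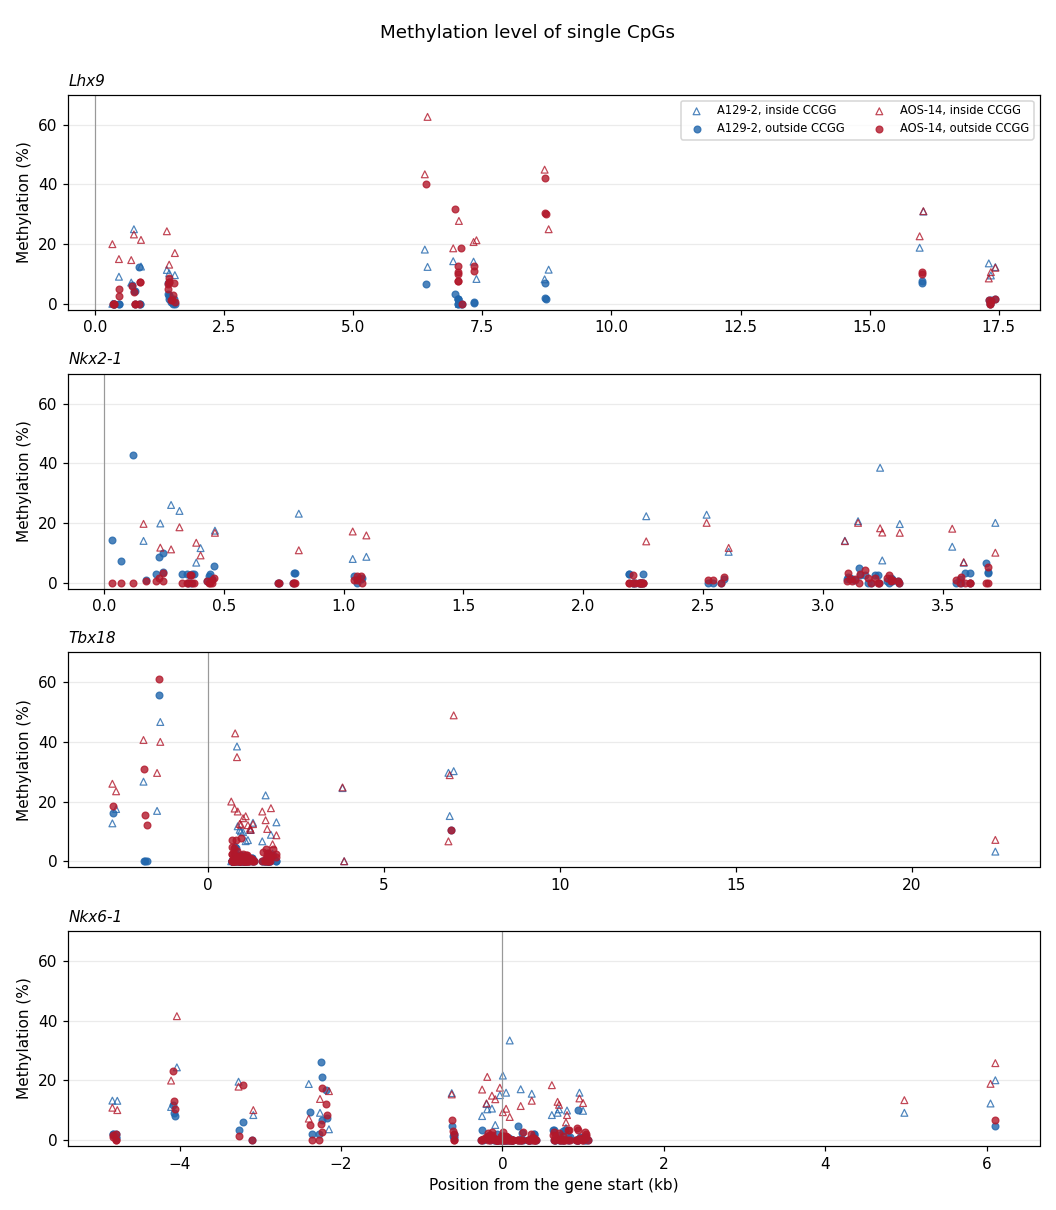
Methylation level (percent) of each compared CpG of Lhx9, Nkx2-1, Tbx18 and Nkx6-1 against its position from the gene start (kb, positive into the gene); blue is A129-2, red AOS-14, open triangles lie inside CCGG and filled circles outside. At Lhx9 the red points rise between about 6 and 9 kb while the blue ones stay low, and at Nkx6-1 filled circles crowd near 0 around the start.

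Broad stretches of low methylation were looked for as valleys, runs of at least 10 compared CpGs, no more than 2 kb apart, whose running mean over 5 CpGs stayed under 10%. A valley overlapped the region in 51 of 53 members in both lines, against 75.9% of all genes in A129-2 and 73.6% in AOS-14. Pax8 and Dlx5, with 17 compared CpGs each, had none. The median length of the longest valley was 2.54 kb in A129-2 and 1.85 kb in AOS-14, against 0.825 kb and 0.684 kb over all genes with a valley. Valleys of 2 kb or more were found at 30 members in A129-2 (56.6%, against 11.2% of all genes) and 22 in AOS-14 (41.5% against 6.12%). The members also have more compared CpGs than other genes, as given above, and the part of this in valley length was not tested.

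In AOS-14 the longest valleys were those of Nkx2-2 (3.84 kb), Nkx2-1 (3.69 kb), Six2 (3.63 kb), Pax7 (3.61 kb) and Emx1 (3.59 kb). In A129-2 they measured 4.08 kb, 2.89 kb, 5.82 kb, 3.83 kb and 2.18 kb. The longest in A129-2 was at Tbx3, 6.95 kb, where AOS-14 had 3.42 kb. At Irx4 it measured 4.97 kb in A129-2 and 0.327 kb in AOS-14, and at Lhx9 1.85 kb and 0.122 kb. The valley was the longer in A129-2 at 38 members and in AOS-14 at 6, and had the same bounds at 7. Such a count was not made over all genes, whose median valley was also the longer in A129-2, at 0.825 kb against 0.684 kb.

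Without CCGG the valleys were longer and more alike between the lines. The median became 3.52 kb in A129-2 and 3.55 kb in AOS-14. Valleys of 2 kb or more were found at 39 and 34 members, against 14.2% and 11.4% of all genes. In both lines 25 members had the same bounds. The valley was then longer in A129-2 at 20 members and in AOS-14 at 5, which was not counted over all genes. The longest was at Six3, a forebrain and eye gene, with 11.1 kb in both lines over 113 CpGs, with means inside of 2.11% in A129-2 and 2.55% in AOS-14. Irx3 followed with 8.99 kb and 8.85 kb, which covered the whole gene, and Tbx3 and Msx1 had 6.89 kb and 6.72 kb in each line. At Irx1 6.71 kb covered the whole gene in both lines. Irx6 joined Pax8 and Dlx5 as a member without a valley.

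**Figure D3:**
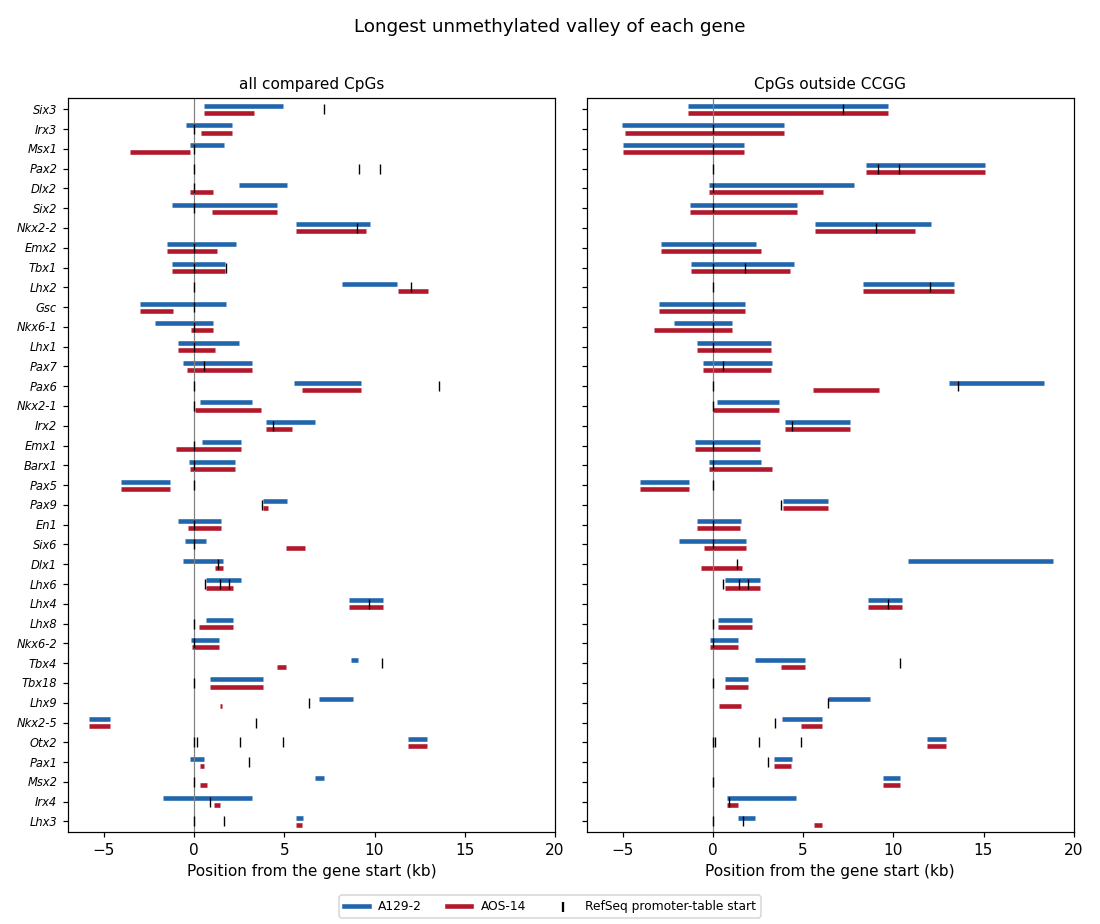
Longest valley of each member whose strand is known, as bars from its first to its last CpG in kb from the gene start (0, grey line), in A129-2 (blue) and AOS-14 (red), with all compared CpGs (left) and without CCGG (right); black ticks are starts in the RefSeq promoter table. The bars are longer and more alike between the lines on the right, and many lie over a start inside the gene, as at Nkx2-2, Lhx2, Lhx4 and Pax2; the A129-2 bar of Dlx1 on the right is the valley it shares with Dlx2.

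Valleys often lay at a start inside the gene. With strand known for 37 members with a valley, the valley without CCGG covered the outer gene start in 16 in A129-2 and 17 in AOS-14, and overlapped a RefSeq promoter window in 26 and 25. In 17 members a promoter window starts over 1 kb inside the gene. Exceptions were Pax5, Otx2 and Msx2, whose longest valley without CCGG lay wholly outside the gene in both lines: at Pax5 it ran from 4.02 to 1.34 kb upstream of the start.

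The edges that were seen had medians not far above the valley threshold, and the others were out of sight. An edge is given by up to 5 compared CpGs just outside a valley, within 2 kb. A valley ends where the running mean reaches 10%, so an edge level follows in part from this rule. No edge level of all genes is set beside those of the members. With all CpGs 57 of 102 edges were seen in A129-2 and 59 of 102 in AOS-14, with median levels of 12.1% and 12.4%, and 42.8% and 42.9% of the edge CpGs lay in CCGG. Without CCGG 22 and 27 of 100 edges were seen, at medians of 14.03% and 14.9%. At the others no CpG was compared within 2 kb, so a length is the stretch that was seen and not the full valley. With all CpGs, edges of 25% or more numbered 1 in A129-2, at Pax3, and 2 in AOS-14, at Irx3 and Pitx1. Inside the valleys the median level was 3.56% and 3.87%, and without CCGG 1.39% and 1.60%.

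Around the gene start the members were low, but not below other genes. Within 1 kb of the start, 32 members had a median of 3.40% in A129-2 and 3.93% in AOS-14, against 2.89% and 3.61% over all genes. In the first 1 kb inside the start, CpGs outside CCGG had mean levels of 0.923% and 1.15% in members and 0.736% and 1.02% in all genes. Between 2 and 3 kb inside, they had 2.29% and 3.10% in members against 2.41% and 4.14%, and between 4 and 5 kb 2.62% and 2.70% against 3.60% and 6.22%. From 2 to 1 kb upstream the members stood above all genes, at 4.90% and 6.48% against 2.62% and 4.57%. The highest start zones were at Dlx1, with 13.7% and 22.3% over 6 CpGs, and Tbx4, with 13.3% and 19.9% over 17. At Dlx1 the promoter window 1.33 kb farther in had 1.33% and 1.06% over 15 CpGs. Of the 32 start zones, 15 were lower in A129-2 on summed reads and 16 within CpGs, against 33.1% and 36.9% of all genes. Nkx2-1 and Tbx1 were higher in both tests, against 0.544% and 0.432% of all genes. Tbx1 had 7.05% against 5.03% over 10 CpGs. No start zone met the rule of 10 points, against 2.39% of all genes lower and 0.0173% higher. With the starts of the promoter table in place of the outer gene start, the zone of Lhx9 met it, against 2.49% of all genes, over 17 CpGs, with 4.88% in A129-2 against 21.0% in AOS-14 and an adjusted p of 5.90e-47 by Fisher's exact test. With those starts Tbx1 was not called, at 4.83% in A129-2 against 5.75% in AOS-14 over 50 CpGs. Its adjusted p-values were 0.957 by Fisher's exact test and 0.940 within CpGs. Nkx2-1 kept its levels of 7.81% and 3.67%.

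**Figure D4:**
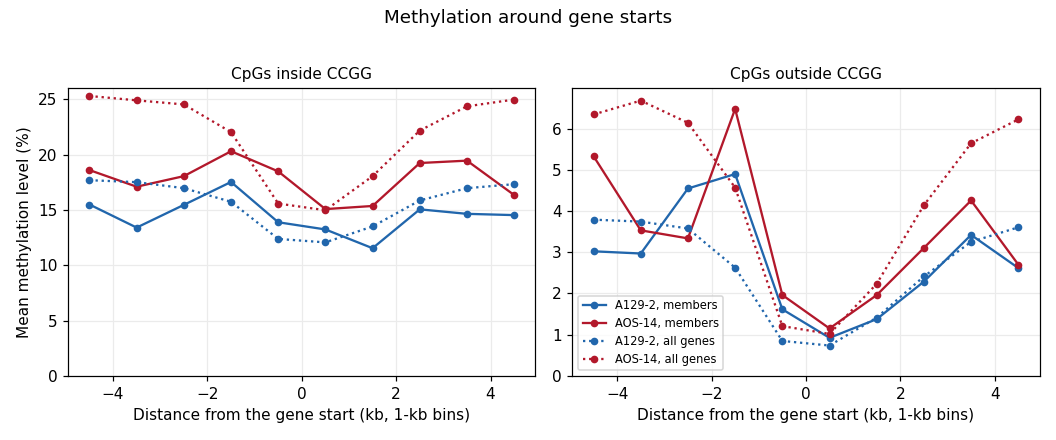
Mean methylation level (percent) in 1-kb bins by distance from the gene start, for members (solid) and all genes (dotted), in A129-2 (blue) and AOS-14 (red), at CpGs inside CCGG (left) and outside (right, other scale). Inside CCGG no bin of the members falls below 11.5%, and outside CCGG the members have 0.923% and 1.15% in the first bin inside the start and lie below all genes in AOS-14 from 1 kb inside onward, but above them from 2 kb before to 1 kb inside the start; member bins hold 9 to 31 genes.

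The flanks were more methylated than the gene at most members. The 5-kb flanks stood above the gene in both lines at 30 of 44 members with at least 5 CpGs in each zone. That count is given without a share of all genes. With each line taken alone, flanks stood above the gene at 72.7% of members in A129-2 and 70.5% in AOS-14. The shares of all genes were 44.0% and 43.5%. Without CCGG it was 65.9% and 61.0% of members, against 40.1% and 39.5%. Over these members the median level of the gene was 5.07% and 6.53%, and of the flanks 6.10% and 7.60%. The median of flanks minus gene was 1.72 and 2.10 points, against -0.617 and -0.994 over all genes. At 11 members the flanks were the lower zone in both lines, among them Lhx1, Lhx5, Six2, Six6, Emx1, Tbx1 and Tbx2.

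Flanks were lower in A129-2 at 26 of 45 members on summed reads and 27 within CpGs, against 62.9% and 65.6% of all genes. With flanks of 2 kb it was 17 of 40 on summed reads, with no share of all genes at that width to set beside it. Flanks were higher at 0 members on summed reads and at 1, Lhx2, within CpGs, against 0.705% and 0.604% of all genes. Genes themselves were lower at 41 and 43 of 52, against 75.3% and 77.6%, and higher at Nkx2-1 in both tests, against 0.55% and 0.453%. The rule of 10 points called no gene body, against 15.4% of all genes lower and 0.039% higher. Tbx18, of the heart and ureter, was the 1 member whose flanks met the rule of 10 points, against 15.9% of all genes lower and 0.0447% higher. They averaged 19.2% over 500 reads in A129-2 and 29.7% over 746 reads in AOS-14, with adjusted p-values of 0.0466 by Fisher's exact test and 0.00133 within CpGs. Outside CCGG, over 5 CpGs, they had 14.4% and 27.6%, with adjusted p-values of 0.590 and 0.0505. The flanks of Lhx2 were higher in A129-2 within CpGs (13.5% and 10.98%, adjusted p of 0.0302) and had 0.203 by Fisher's exact test. Outside CCGG the 5 flank CpGs of Lhx2 had 5.06% and 0.779%, with adjusted p-values of 3.50e-04 and 2.15e-04. Those of Otx1 were lower in both tests, with 5.89% and 6.92% of the summed reads, although their mean level over CpGs was the higher one in A129-2, 5.80% and 5.08%.

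Methylated segments, runs of at least 3 CpGs with a running mean of 25% or more, were few in A129-2. They were found at 3 of 53 members there (5.66%, against 26.0% of all genes) and at 25 of 53 in AOS-14 (47.2% against 57.6%). Without CCGG they remained at 1 member in A129-2, Pax5, and at 9 in AOS-14: Irx4, Lhx9, Nkx2-2, Pax3, Pax5, Pax7, Pitx1, Tbx18 and Tbx4. The shares of all genes were then 8.32% and 27.6%.

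With all CpGs, the segments of AOS-14 lay inside the gene at 21 of the 53 members and in Tbx20. They are Emx1, Emx2, En1, Irx3, Irx4, Lhx2, Lhx8, Lhx9, Nkx2-2, Pax2, Pax3, Pax5, Pax6, Pax7, Pax8, Pitx1, Six2, Tbx1, Tbx15, Tbx4 and Tbx5. In A129-2 the genes with a segment inside were Pax5 and Pax8, and the third member, Otx2, had one in its flank at 29.5%, where AOS-14 had 26.5%.

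The strongest segment outside CCGG was at the far end of Tbx4. Its 5 CpGs at chr11:85915532-85915718, 0.379 kb before the gene end, had 23.7% in A129-2 and 44.4% in AOS-14. At Lhx9 the 3 CpGs at chr1:138840113-138840124 had 3.51% and 34.3%. Pax5 had mean levels above 25% in both lines, 31.4% and 35.5%, over 3 CpGs at chr4:44615530-44616823, deep inside the gene. Weighted by reads, the exact 95% intervals of that segment were 11.2% to 19.7% in A129-2 and 20.6% to 29.4% in AOS-14. At Nkx2-2 6 CpGs at chr2:147183138-147183214 had 18.7% and 31.4%, and at Irx4 5 CpGs at chr13:73267507-73267529 had 14.3% and 29.5%. Both genes hold a valley nearer the start. Apart from that of Pax5, these segments were called in AOS-14 only. Their bounds were thus set where AOS-14 was high, and a lower level in A129-2 follows in part from that choice.

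The other gene lists had low levels too. The 55 other homeobox genes with enough CpGs had medians of 4.91% and 6.40%, 7 other T-box genes 5.49% and 6.10%, and 42 other developmental transcription factors 3.88% and 5.03%. Valleys of 2 kb or more in AOS-14 were found at 15 of the 55, 1 of the 7 and 24 of the 42, and without CCGG at 27, 3 and 33. Housekeeping genes, 15 of them, had levels of 3.70% and 4.47% and 2 such valleys. The 30 Polycomb group genes had 4.80% and 6.45%, with 8. Fibroblast markers, the genes of another cell type, had 12.3% and 17.3% over 7 genes with enough CpGs of 14, and no valley of that length. On summed reads 43, 7, 36, 11, 29 and 7 genes of these lists, in the order other homeobox, other T-box, other developmental, housekeeping, Polycomb and fibroblast, were lower in A129-2, and 0 met the rule of 10 points.

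The libraries held 153035567 read calls at 1699405 CpGs in A129-2 and 178315194 at 1819756 in AOS-14, and 1030368 CpGs had at least 10 reads in both. The median compared CpG of the members had 79 and 92 reads. Over all compared CpGs the levels inside CCGG were 18.9% and 27.9% and outside 4.74% and 8.49%.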

How the data were processed

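Per the submitters' processing notes, reads were processed with BSMAP on mm10; version, trimming and duplicate handling: not given in the sources used here. In each file the authors deposited, for every CpG, counts of all reads and of methylated reads, and their fraction, which equalled the ratio of these counts within 0.0005. Levels were recomputed from the deposited counts, in percent, and a region's level is the mean of its CpGs unless called read-weighted.

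RefSeq (GRCm38.p6) supplied gene positions, and strand from its promoter table (39 of 54 genes); 196379 of 196379 listed CpG positions inside its windows fell on a CG. Reads were compared with Fisher's exact test, two-sided, per region, zone and CpG, with Benjamini-Hochberg adjustment over all units of a kind, and with a Cochran-Mantel-Haenszel test within CpGs, added after the data were seen because simulated reads showed false calls of the first. Exact binomial (Clopper-Pearson) 95% intervals cover counting error only, since reads carry no molecular identifiers. Segments and valleys have no test. On simulated reads the rule of 10 points recovered 100% of 100 regions changed by 15 points, with 0 false calls. The Cochran-Mantel-Haenszel test recovered 77.0% of 100 changed by 5 points, and 100% of 200 planted valleys were found. The changed regions and the background of the planted valleys were set far above the levels of the members. Recovery at the members' levels and at shallow valley edges was therefore not measured.

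The members and gene lists were chosen with earlier results of these data known. Values are named for the 5 highest and 5 lowest members, the 5 largest differences each way, the 5 longest AOS-14 valleys and members without one, the highest and lowest of each family, members called at 10 points, and members with a methylated segment inside the gene; a few others are named as examples. Tests ran in scipy 1.17.1 under Python 3.11.15, tables in pandas 2.3.3 and numpy 2.4.6, loops in numba 0.67.0, and plots in matplotlib 3.10.9. Alternatives varied the read minimum, CCGG, flanks, CpG number, weighting, size of difference, and the valley threshold, gap and window.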

Additional observations from a re-analysis of the deposited data

How the results depend on the processing

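Of the differences of single members under the alternatives, 453 kept their side of the threshold, 7 gained a call, 8 lost one and 3 reversed. A reversal was counted only where the difference was called in the main run or under the alternative. Uncalled differences could change sign, as at Dlx3 and Nkx6-2 without CCGG. These had 1.95% and 1.12% in A129-2 against 1.85% and 0.95% in AOS-14. The reversals, all of the mean level over CpGs, were Nkx6-1, which was 0.118 points higher in A129-2 without CCGG and 0.377 without flanks, and Otx1, which was 0.00972 higher without CCGG; the cause was not tested. The median member level in A129-2 was 5.45% at a minimum of 5 reads, 5.18% at 20, 5.32% at 50, 2.25% without CCGG, 5.26% with flanks of 2 kb and also without flanks (gene only), 5.55% with 20 or more CpGs and 5.07% weighted by reads. In AOS-14 it was 6.51% at 20 reads, 2.81% without CCGG, 6.59%, 7.15% and 6.92% with flanks of 2 kb, 10 kb and none, 6.68% with 20 or more CpGs and 6.50% weighted by reads. Members called lower at the rule of 10 points numbered 1 weighted by reads (Lhx9) and 2 at 5 points (Lhx9 and Tbx4), and those called higher on summed reads 0 with flanks of 10 kb. With flanks of 2 kb in place of 5 kb, 17 member flanks were lower. With promoter-table starts, 1 start zone (Lhx9) met the rule of 10 points. The median valley became 0.642 and 0.37 kb at a threshold of 5% (A129-2, AOS-14), 3.001 kb at 15% in AOS-14, 1.49 kb at a gap of 1 kb in A129-2, 4.32 and 3.32 kb at 5 kb, 2.86 kb with a window of 11 CpGs in AOS-14, and 3.55 kb there without CCGG. Single CpGs called lower numbered 67 at 15 points and 10 without CCGG. The counts at 5 points, weighted by reads, with other flanks and of these single CpGs have no share of all genes or CpGs beside them. They are therefore not compared with the genome. With starts of the promoter table, start zones had medians of 3.37% and 3.92%.

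No paired analysis was possible because each line has 1 library, and no replicate was left out for the same reason. Depth limits small regions such as Irx6, and where no compared CpG was near a valley edge, which holds for most edges without CCGG, the length is that of the covered stretch.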
